A study of Drosophila melanogaster with 3 samples.

Results

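Anti-GFP chromatin immunoprecipitation and sequencing (ChIP-seq) of the homeodomain protein PHDP was examined at 7 genes of Drosophila melanogaster, out of 13945 protein-coding genes on the chromosome arms. The genes were ush, its nested neighbour cbt and the 5 GATA factor genes srp, pnr, grn, GATAd and GATAe. The material was whole embryos of 10 to 24 hours from a transgenic line that stably expressed PHDP with green fluorescent protein at its C terminus, in 3 biological replicates of 1 group. All embryos carried the fusion, the stage span was broad, and whole organisms mix every cell type, so a peak cannot be placed in any tissue. No embryos without the tag were analysed here, so peaks that the antibody gives without PHDP cannot be told apart from PHDP binding. ush and cbt were chosen by the number and signal of their peaks in these same lists, and the GATA factor genes were added as the family with which U-shaped works. Peak counts and signals at ush and cbt are therefore a description, and no test was made of any value below.

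GATA factors are zinc finger transcription factors that bind DNA words built around GATA, and insects and vertebrates use them in blood, heart, gut and surface tissue. U-shaped, the product of ush, is a Friend of GATA protein: it attaches to a GATA factor and changes what that factor does to its targets. In the fly embryo it works with Pannier in the dorsal ectoderm and heart and with Serpent in blood cells. PHDP belongs to the paired-like homeodomain class, whose members read AT-rich words with a TAAT core.

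Within the body of a gene and 2 kb on either side, the 7 genes held 27 peaks of the list filtered by irreproducible discovery rate (IDR), which has 7092 peaks in all. ush held 20 of these, cbt 3 that all lie within ush as well, GATAd 3, grn 2, srp 1, GATAe 1 and pnr none. Of the 7 genes, 6 had at least 1 such summit, beside 42.4% of all protein-coding genes. The start sites of 5 of the 7 had a summit within 1 kb (ush, cbt, grn, GATAd and GATAe), beside 28.9% of all protein-coding genes. Since ush and cbt were chosen for their peaks, nothing is read from those shares. The windows below are RefSeq genome sequence (Release 6, the same assembly as dm6), 100 bases either side of a summit, plus strand, 5′ to 3′. They were picked to show the strongest site, its neighbour, ush sites with a GATA word near the summit, and sites at srp, grn and GATAd. The ush site with its summit at 493428 is the weakest ush IDR peak, at 173.1. Its matched summits in replicates 1, 2 and 3 lie 72, 98 and 71 bp away. Capitals mark GATA words, here GATA with A or T before it and A or G after it, and the homeodomain core TAAT. Both strands were searched, so that a core on the minus strand reads ATTA and a GATA word there reads with TATC. The windows are, in order, chr2L:480987-481187, chr2L:479966-480166, chr2L:520758-520958, chr2L:493328-493528, chr3R:15984536-15984736, chr3R:8155843-8156043 and chr2L:10335022-10335222.
strongest ush-cbt peak: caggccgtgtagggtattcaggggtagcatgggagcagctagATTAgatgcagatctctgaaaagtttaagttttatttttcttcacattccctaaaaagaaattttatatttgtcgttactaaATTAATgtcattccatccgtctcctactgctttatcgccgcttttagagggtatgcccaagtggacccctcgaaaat
second ush-cbt peak: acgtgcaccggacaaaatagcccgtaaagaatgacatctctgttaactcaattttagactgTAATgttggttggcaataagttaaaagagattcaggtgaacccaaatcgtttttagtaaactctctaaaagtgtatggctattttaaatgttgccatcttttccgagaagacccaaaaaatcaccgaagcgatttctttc
ush intron, 2608 bp upstream of the RA start: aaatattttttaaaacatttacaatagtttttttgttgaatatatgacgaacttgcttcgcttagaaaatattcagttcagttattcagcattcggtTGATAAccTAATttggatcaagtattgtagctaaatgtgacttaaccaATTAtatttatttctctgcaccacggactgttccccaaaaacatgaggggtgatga
ush intron, 2593 bp downstream of the RB start: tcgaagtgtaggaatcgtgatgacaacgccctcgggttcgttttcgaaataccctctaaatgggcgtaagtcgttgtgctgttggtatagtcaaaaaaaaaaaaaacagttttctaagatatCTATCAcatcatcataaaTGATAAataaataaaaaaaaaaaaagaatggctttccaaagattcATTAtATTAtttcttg
upstream of srp: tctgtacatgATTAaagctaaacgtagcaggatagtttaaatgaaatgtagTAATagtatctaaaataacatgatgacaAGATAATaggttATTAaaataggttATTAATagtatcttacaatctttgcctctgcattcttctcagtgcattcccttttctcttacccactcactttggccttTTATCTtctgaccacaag
grn intron: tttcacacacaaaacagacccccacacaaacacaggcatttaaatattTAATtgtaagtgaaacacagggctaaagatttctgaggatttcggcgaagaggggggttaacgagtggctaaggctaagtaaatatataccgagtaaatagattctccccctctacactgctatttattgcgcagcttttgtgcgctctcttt
GATAd intron: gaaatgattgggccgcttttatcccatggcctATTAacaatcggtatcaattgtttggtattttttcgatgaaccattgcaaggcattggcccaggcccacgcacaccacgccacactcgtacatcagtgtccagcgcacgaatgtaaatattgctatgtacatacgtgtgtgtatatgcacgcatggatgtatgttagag

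The strongest peak of these genes lies between the cbt start and the second ush start. Its peak, chr2L:480520-481345, had its summit at position 481087 and a signal of 6131 in the IDR list, rank 3 of 7092. The signal is the authors' own value for a peak, with no stated unit, and pooled values run on a larger scale than those of a replicate list. In the replicate lists the matched peak had 2075 in replicate 1, 2333 in replicate 2 and 1752 in replicate 3, a mean of 2053 ± 291.5 (SD, n = 3). It ranked 4, 5 and 3 among the peaks of replicates 1, 2 and 3. The summit of the matched peak was within 17 bp of the IDR summit in every replicate. At 826 bp the interval was wider than 99.9% of IDR peaks, whose median width was 319 bp, while the matched intervals of replicates 1, 2 and 3 were 483, 404 and 452 bp wide.

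Position does not settle which gene this peak belongs to. ush (FBgn0003963, chr2L:476220-540560, plus strand) has annotated starts at 476220 (transcripts RD and RE), 490835 (RB), 523466 (RA) and 523736 (RC). cbt (FBgn0043364, chr2L:476446-479688, minus strand) encodes a zinc finger transcription factor needed for dorsal closure of the embryo, and it lies whole inside the ush body, transcribed the opposite way. The summit falls in the ush intron at 476332 to 489516, which is 13185 bp long. It is 4867 bp downstream of the earliest ush start and 9748 bp upstream of the next. From the cbt start it is 1399 bp upstream, with the near edge of the peak 832 bp away. By nearest start site the peak goes to cbt, and by gene body it goes to ush. Both genes have it upstream of at least 1 start, so it is given here as the ush-cbt peak, and the lists hold no measure of which gene it acts on.

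**Figure D1:**
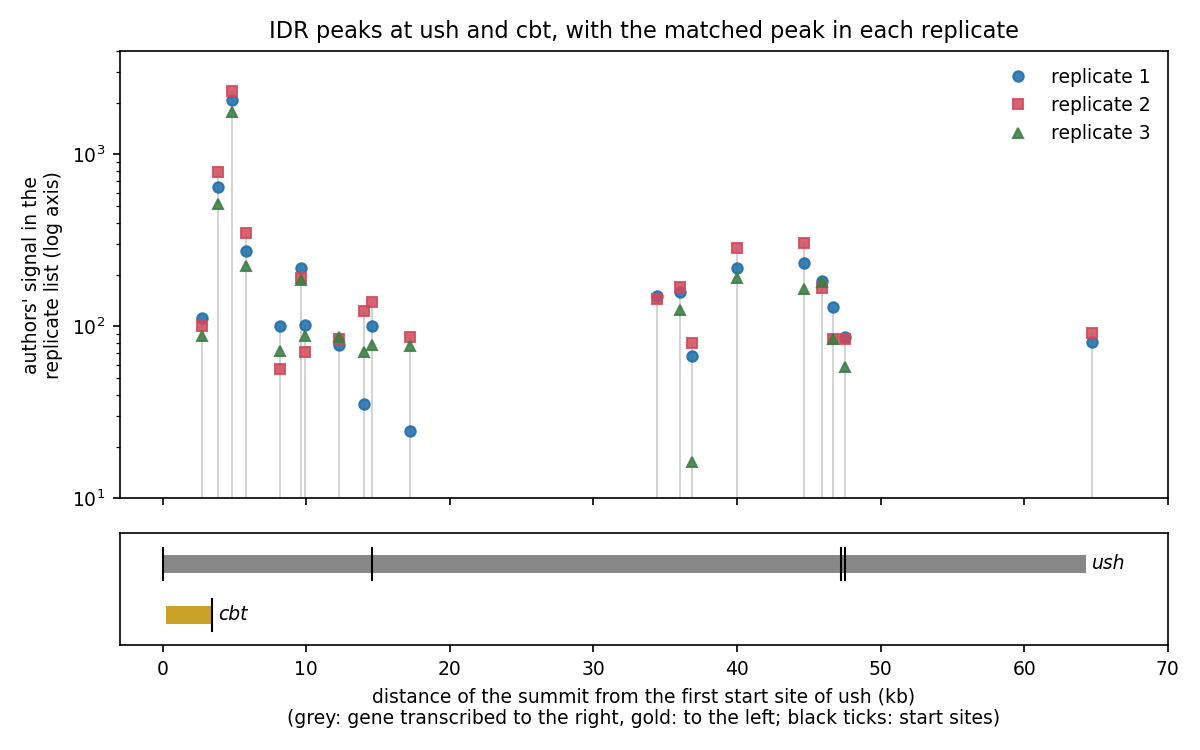
Signal of the 20 IDR peaks of ush and cbt in each replicate list (log axis) against distance in kb from the earliest ush start, with gene bodies below (grey ush, gold cbt) and start sites as black ticks. Points are the matched peak of replicates 1, 2 and 3, and the ush-cbt peak at 1752 to 2333 stands above all others in each replicate, with none past 792.

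A weaker peak sat closer to cbt. At chr2L:479844-480285 its summit was 378 bp upstream of the cbt start, with a signal of 1941 and rank 148 in the IDR list. The replicate lists gave it 647.5, 791.8 and 515.9, a mean of 652 ± 138 (SD, n = 3). Its summit was 1021 bp from that of the strongest peak, whose signal was 3.21, 2.95 and 3.40 times as high in replicates 1, 2 and 3 (mean 3.18 ± 0.226, SD, n = 3). The pair therefore kept its order in each replicate. The weakest of the cbt peaks, chr2L:478793-479188, lay inside cbt, 697 bp downstream of its start in the 5′ UTR exon and in a ush intron at once, with 111.3, 101.2 and 87.49 in the replicates (mean 100 ± 11.9, SD, n = 3). Each replicate's 5000 strongest peaks likewise placed 3 summits at cbt.

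The other strong ush peaks were all intronic. The peak 5781 bp downstream of the earliest start (chr2L:481820-482159) had 274, 350.2 and 225.7 in replicates 1, 2 and 3 (283 ± 62.8, SD, n = 3). It is also nearest to the cbt start, 2313 bp upstream of it. At chr2L:520699-520980, 2608 bp upstream of the RA start, the replicate signals were 233.1, 305.5 and 165 (234 ± 70.2, SD, n = 3). The peak at chr2L:516099-516347, 7243 bp upstream of the same start, had 217.9, 284.6 and 190.8 (231 ± 48.3, SD, n = 3). These 3 peaks were highest in replicate 2 and lowest in replicate 3, as was the ush-cbt pair. The highest signals of the replicate lists fell in the same order, at 2324 in replicate 1, 2781 in replicate 2 and 1907 in replicate 3. Their median signals were 34.48, 34.89 and 28.63, so replicates 1 and 2 were nearly level by that measure.

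Raw signals lay closer together at chr2L:485726-486031, 4942 bp upstream of the RB start, with 218.1, 192.2 and 187 (199 ± 16.7, SD, n = 3). Since the lists differ in scale, closer values need not mean closer agreement. Its ranks in replicates 1, 2 and 3 were 1286, 1723 and 1179. The peak at chr2L:521986-522229, 1341 bp upstream of the RA start, had 182.9, 166.9 and 181.6 (177 ± 8.88, SD, n = 3). At chr2L:512138-512351, 11223 bp upstream of that start, the values were 158.3, 168.6 and 125 (151 ± 22.8, SD, n = 3). The first of these 3 was above both others in every replicate list, while the ranges of the other two overlap. The remaining 12 ush peaks had IDR signals of 173.1 to 400.8, and 10 of them were matched in all 3 replicates with mean signals of 54.3 to 106.

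IDR summits formed separate groups along ush when split at its widest gaps. The upstream group had 11 summits over 14440 bp and 74.95% of the summed IDR signal at ush, of which the ush-cbt peak alone made up 41.1% of the whole. A second group of 8 summits covered 13080 bp before and at the starts of the shorter transcripts, with 23.4% of the signal and a highest value of 710.5. Between these groups 17220 bp of the ush body held no IDR summit, and 17246 bp separated the second group from the last summit. Weaker pooled peaks lay in both gaps, such as those at 495484 and 528475, each matched in all 3 replicates. The grouping therefore holds for the IDR list only. The last summit, at 540976, was past the end of ush in the 3′ UTR of lwr, the gene of the SUMO conjugating enzyme, and added 1.64%. Without the margin ush held 19 summits, which is also its number up to the next genes, MED15 at 49 bp on the left and lwr at 38 bp on the right. By nearest protein-coding start, 14 of the 20 summits went to ush, 5 to cbt and 1 to lwr.

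Few of the ush summits were at a start site. Within 500 bp of any annotated start lay 3 of 20 (15.0%), beside 44.4% of all IDR summits, and 16 of the 20 lay in a ush intron. The ush body is 64341 bp long, and no such share was worked out for other long genes. Summits at 522931 and 490261 lay just outside the limit, 535 and 574 bp upstream of the RA and RB starts. The later ush starts had a peak nearby. The summit at 490827 was 8 bp upstream of the RB start with 100, 138.8 and 77.93 in the replicates (106 ± 30.8, SD, n = 3). The summit at 523730, 6 bp upstream of the RC start and 264 bp downstream of the RA start, had 87.16, 84.03 and 57.93 (76.4 ± 16.1, SD, n = 3). The earliest ush start, which makes the RD and RE transcripts, had no IDR or pooled summit nearer than 2771 bp. Replicate 2 alone placed a summit 63 bp upstream of it, and the nearest in replicates 1 and 3 were 2771 and 2098 bp downstream.

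Replicate lists gave the ush locus a similar number of summits. Their strongest 5000 peaks placed 15, 13 and 17 there in replicates 1, 2 and 3 (15.0 ± 2.00, SD, n = 3), and their full lists 51, 49 and 44. Of the 20 IDR peaks, 18 (90.0%) had a summit within 100 bp in each replicate, beside 90.5% of all IDR peaks. Both peaks that missed this were absent from replicate 3 only, by 118 bp at 510648 and by 105 bp at 540976. The median ush signal, 305.3, was close to the 301.3 of all IDR peaks, and 11 of the 20 reached that value. Nearest to the limit of the IDR list, the weakest ush peak inside it had 173.1 and the strongest pooled peak outside it 130.7, where the lowest IDR signal overall was 171.7.

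**Figure D2:**
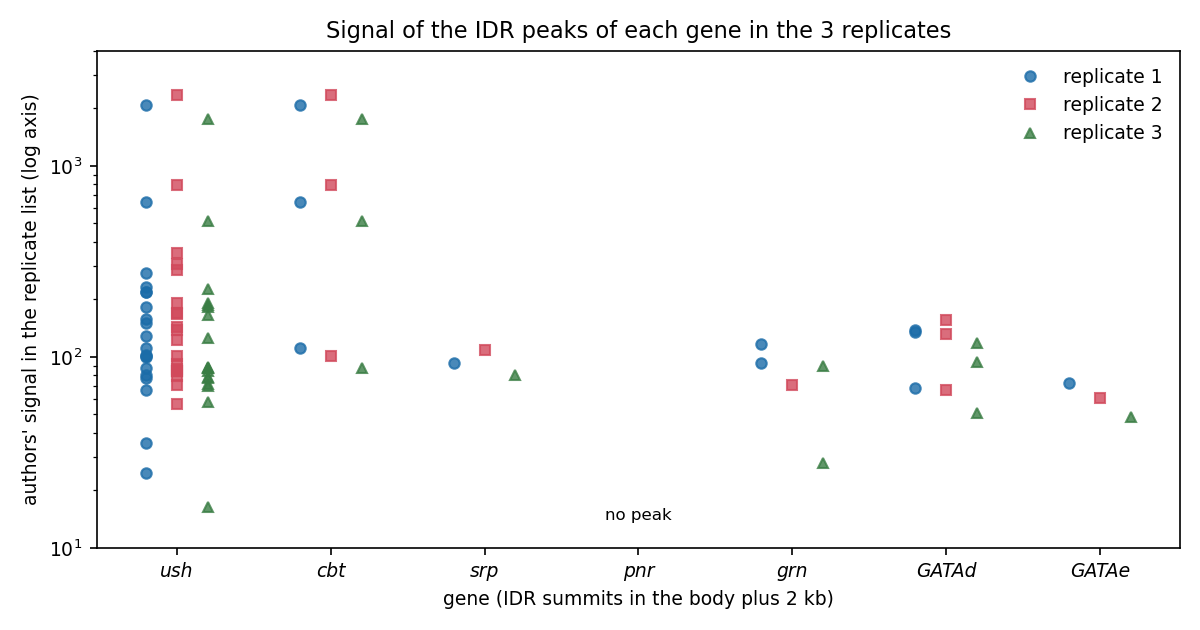
Signal of each IDR peak in the replicate lists (log axis) for the 7 genes, with replicates 1, 2 and 3 side by side and cbt showing the 3 peaks it shares with ush. Peaks of srp, grn, GATAd and GATAe stay between 28.0 and 155.4, below the ush-cbt pair in all replicates, and pnr has none.

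For its length, ush was among the densest genes. It held 2.93 IDR summits per 10 kb of body plus margins, rank 35 of 1977 protein-coding genes of at least 10 kb, whose median was 0.507 and upper quartile 1.16. Among the 663 genes of at least 30 kb its rank was 2, below a highest value of 3.36. Counting only IDR peaks with signals from 301.3 upwards, the density of ush was 1.61, rank 59 of 1977 beside a median of 0.0834. The genes of at least 30 kb nearest to it were shn, a zinc finger gene of Dpp signalling, with 2.89 (18 summits), msn, a kinase gene of the JNK pathway, with 2.52 (9 summits), and Pdp1, a bZIP gene of the circadian clock, with 2.50 (15 summits). This likeness is in summits per length alone. grn (0.525, rank 971), srp (0.456, rank 1040) and GATAe (0.713, rank 746) lay near the median of the 1977 genes, of which 33.4% had no IDR summit. GATAd and cbt are shorter than 10 kb and have no rank. Their densities were 3.17 and 4.14 per 10 kb, above that of ush, from 3 summits each.

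**Figure D3:**
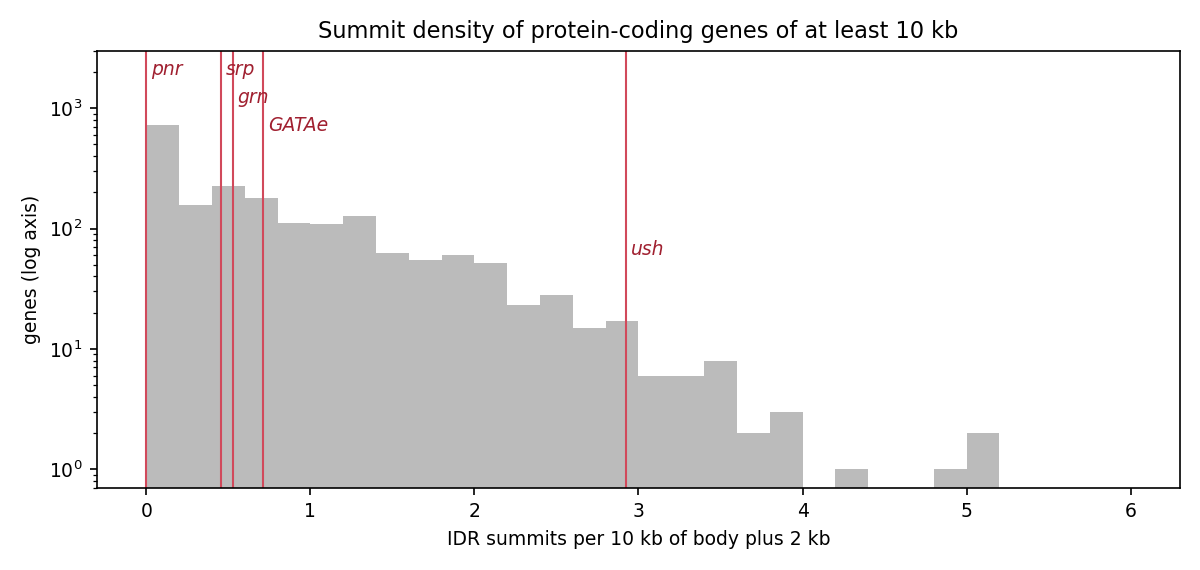
Number of protein-coding genes of at least 10 kb (log axis) by IDR summits per 10 kb of body plus 2 kb, with red lines at ush and at the GATA factor genes long enough to be ranked. ush is at 2.93, while pnr, srp, grn and GATAe lie between 0 and 0.713.

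Each GATA factor gene carried fewer peaks than ush, and none of these peaks reached the signals of the ush-cbt pair. Since ush and cbt were chosen for their peaks, nothing is read from this contrast. The windows also differ in length, and per 10 kb GATAd (3.17) was above ush (2.93). Together the 5 GATA factor genes had 7 IDR summits in their bodies plus 2 kb, with signals of 174.7 to 389.9 and a median of 266.9. Of these, 2 reached the IDR median of 301.3, and 6 had a match in all 3 replicates. Requiring a match among the 7092 strongest peaks of both other replicates left 4 of the 7, whichever of replicates 1, 2 and 3 was left out. Of all 7092 IDR peaks the same rule kept 5095, 4999 and 5039, so peaks were lost throughout the list.

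srp, which directs the formation of endoderm, fat body and blood cells, is on arm 3R at 15986152-16004085 of the plus strand (FBgn0003507). Its only IDR summit within 2 kb was 1516 bp upstream of the first start, at chr3R:15984500-15984673, with 92.66, 108.9 and 80.66 in the replicates (94.1 ± 14.2, SD, n = 3). A stronger peak lay just beyond the margin, 2450 bp upstream at chr3R:15983619-15983853, with 139.5, 168.2 and 167.4 (158 ± 16.4, SD, n = 3). The replicate ranges of this pair do not overlap, so the 2 kb limit keeps the weaker and drops the stronger. No IDR summit fell in the srp body, and pooled peaks there had signals of 40.9 and 44.9, far below the lowest IDR signal. On the other side of srp the summit at 16006138 stood in an intron of lncRNA:CR42839, 2967 bp upstream of GATAe. Its signals were 140.7, 119.7 and 142.3 (134 ± 12.6, SD, n = 3), and it lies between srp and GATAe, more than 2 kb from both.

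GATAe acts after srp in the differentiation of the midgut and is the next gene on the arm (FBgn0038391, chr3R:16009105-16019133, plus strand). It had 1 IDR summit, in its intron 428 bp upstream of the RA start, with 72.71, 61.08 and 48.43 in the replicates (60.7 ± 12.1, SD, n = 3). At 174.7 this peak was close to the lowest signal of the IDR list. None of its summits was among the strongest 5000 of any replicate. The strongest pooled peak outside the IDR list, 136.2, was 186 bp downstream of the earlier start.

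pnr held no peak. Pannier patterns the dorsal ectoderm and the heart and is a partner of U-shaped, and its gene (FBgn0003117) spans chr3R:16026079-16041796 on the plus strand. No summit of any of the 5 lists lay in its body, within 2 kb of it or up to the next genes, so there are no pooled peaks to name. The stretch without a summit around it was 60678 bp in the IDR and pooled lists and 60545, 37677 and 60601 bp in replicates 1, 2 and 3. It ran in the IDR list from the GATAe intron, 14233 bp to the left of pnr, to an intron of Mhcl, 30728 bp to the right. Among protein-coding genes of 10 to 25 kb, 10.5% had no summit of any list in the body plus 2 kb. An empty window of that kind is therefore not rare for a gene of this size. No such share was worked out for the longer stretch.

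**Figure D4:**
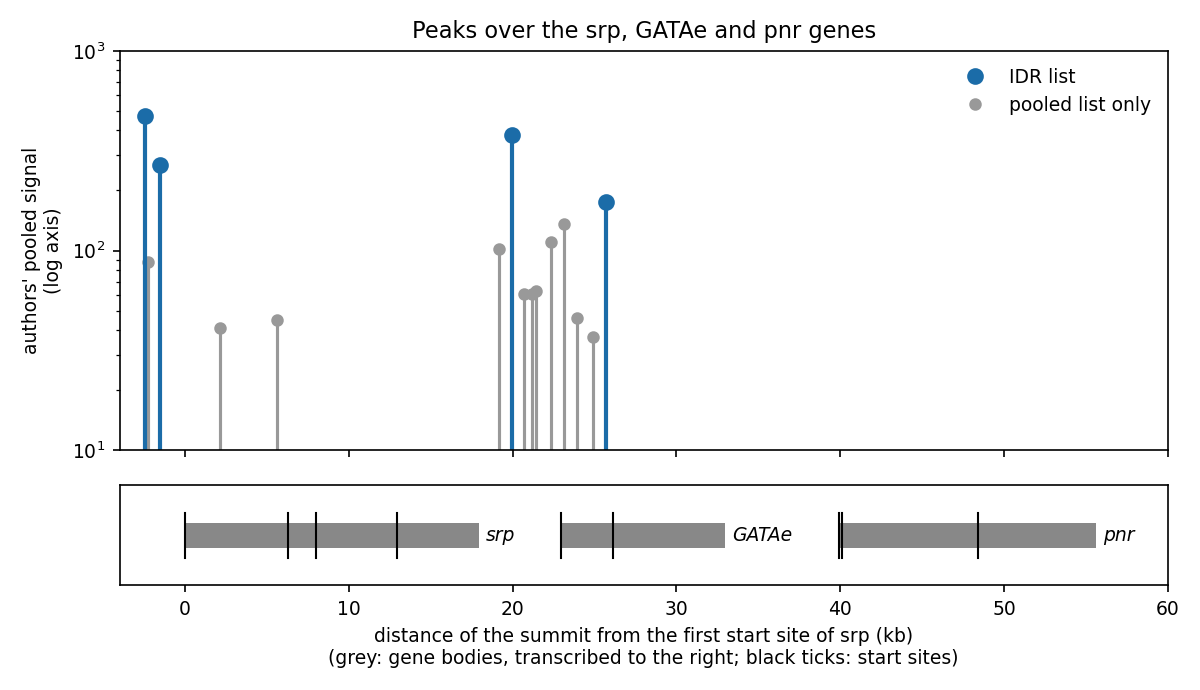
Authors' pooled signal (log axis) of the peaks over srp, GATAe and pnr, up to their next genes, against distance in kb from the first srp start, with gene bodies in grey and start sites as black ticks below. Blue points are in the IDR list, from 174.7 to 473, grey points in the pooled list only, and no point lies over pnr.

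grn, needed for the shape of the posterior spiracles and for axon guidance, had an intronic and a promoter peak (FBgn0001138, chr3R:8147368-8181444, minus strand). The intronic summit, 25501 bp downstream of the start at chr3R:8155914-8156012, had 116.2, 70.79 and 89.48 (92.2 ± 22.8, SD, n = 3). The promoter summit was 86 bp upstream of the start at chr3R:8181332-8181727 and had 93.27 in replicate 1 and 28.0 in replicate 3. Replicate 2 had no summit within 100 bp of it, the nearest being 879 bp away, so no mean is given. The strongest 5000 peaks of replicates 1, 2 and 3 placed 2, 0 and 1 summits at grn (1.00 ± 1.00, SD, n = 3), a spread as large as the mean.

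GATAd, the shortest of the GATA factor genes (FBgn0032223, chr2L:10333734-10339185, plus strand), had the strongest peaks of the 5 within the 2 kb margins. In its intron, 1208 bp downstream of the RA start at chr2L:10334949-10335161, the replicates gave 135.4, 132.2 and 117.5 (128 ± 9.59, SD, n = 3). A peak past its end, chr2L:10339160-10339372, had 137.9, 155.4 and 94.0 (129 ± 31.6, SD, n = 3). That summit is 148 bp upstream of the start of SamDC, a polyamine synthesis gene, so of the GATAd count 1 summit is at another gene's promoter. The summit at the GATAd start itself, 41 bp downstream of it in the 5′ UTR exon, had 68.32, 66.71 and 51.0 (62.0 ± 9.58, SD, n = 3). The first of these 3 peaks was above the last in each replicate.

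GATA words lay under some of these peaks and not others. Within 100 bp of the summit, a GATA word was found in 10 of 20 ush peaks (50%, exact 95% binomial interval 27.2 to 72.8%) and in 2 of the 7 peaks of the factor genes (28.6%). Of all IDR peaks, 40.9% had such a word, a share inside the ush interval, which covers counting error only and treats neighbouring peaks as independent. The strongest ush-cbt peak had none in its printed window and 1 in its whole interval, 419 bp before the summit. The second ush-cbt peak had none in its interval. Of the 8 strongest ush peaks 4 held a GATA word, and of the other 12 there were 6. The upstream group of ush summits had the word in 5 of 11 and the second group in 5 of 8. By the leftmost base of the word on the plus strand, the GATA words nearest to a summit were 3 bp before it at 520858, 7 bp after it at 510648 and 11 bp before it at 522125, as the capitals of the 520858 window show. The srp window upstream of the gene held AGATAA on both strands, 21 bp before and 83 bp after its summit, and the letters of the first overlap a TAAT.

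The longer homeodomain words were missing from the IDR windows. Pooled peaks outside the IDR list did hold TAATTA, such as those with summits at 498292 in ush and 10334014 in GATAd. TAATTA lay in 0 of the 27 IDR windows, beside 18.8% of all IDR windows. For 27 independent windows, 0 matches would allow a share of up to 11.1% at about 95% confidence. These windows are not independent, since 20 of them lie at ush, which was chosen for its peaks. The bound therefore does not apply here, nothing is read from it, and no test of the share was made. The paired forms TAATNNATTA and TAATNNNATTA were also in 0 of 27, beside 2.65% and 3.07% of all, too few to read at this number of peaks. The shorter TAAT, searched after the values were seen, was in 24 of 27 (88.9%) beside 92.0% of all IDR windows, with 3 matches in the printed window of the strongest ush-cbt peak. Median GC of the windows was 38.6% at ush (range 29.9 to 53.7%) and 41.3% at the factor genes (31.8 to 55.7%). Over all IDR peaks it was 33.8%, with quartiles of 29.4 and 39.3%. The part of GC in the absence of TAATTA was not tested. A match is only letters in a window, and a missing one says nothing of which protein was there.

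Partners and neighbours of the GATA factors in a list drawn up from textbook knowledge were counted next. Of 24 such genes, 10 (41.7%) had an IDR summit within 1 kb of a start, beside 28.9% of all protein-coding genes, and 13 (54.2%) had one in the body plus 2 kb, beside 42.4% of all. The cofactors and binding partners gave 5 of 10, genes that act upstream of or beside GATA genes 3 of 9, and genes with GATA-regulated control regions 2 of 5. The strongest bound summit was nearer to another gene's start for 3 of the 5 cofactors (Mi-2, MTA1-like and HDAC1) and for Adh. tin, the homeobox gene of heart and dorsal mesoderm, had the strongest, 222 bp upstream of its start with 325, 395.1 and 257.2 in the replicates (326 ± 69.0, SD, n = 3). Adh, the alcohol dehydrogenase gene, followed with a summit 308 bp upstream of a start and 277 ± 29.6 (SD, n = 3), though that summit lies in an intron of osp. At fkh, the forkhead gene of the gut, a summit 231 bp upstream of a start had 201 ± 29.3 (SD, n = 3). da, the partner of the proneural proteins, had 138 ± 42.4 (SD, n = 3) at 122 bp upstream, and MTA1-like, of a nucleosome remodelling complex, 94.2 ± 38.7 (SD, n = 3) at 280 bp upstream, nearer to the start of Sec23. Another 5 were bound, and the unbound ones included dpp, with 3 summits in its window more than 1 kb from its starts, and the proneural genes ac and sc, with none.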

How the data were processed

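The data are peak lists from anti-GFP ChIP-seq of whole embryos expressing GFP-tagged PHDP, 3 biological replicates of 1 group. The authors deposited a list per replicate, a list on pooled replicates and an IDR list on dm6, per the labels. What aligned the reads and called the peaks is not given in the sources used here. Each peak carries a signal value, deposited by the authors without a unit and described here within a list, and the authors' own −log10 q. That value is 4.24 in every IDR peak and falls to 0.348 in the pooled list, so weaker pooled peaks have little support. Replicate and pooled lists hold 30000 peaks each (5 peaks of replicate 3 lay off the chromosome arms and were left out), so total numbers are not compared. Sequencing depth is unknown from these files.

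Positions are 1-based. Genes and start sites came from Ensembl release 115 and sequence from the RefSeq genome of the same assembly. A summit matched a replicate within 100 bp, and a gene was bound within 1 kb of a start. Named were all IDR peaks of a gene with up to 6, the 8 strongest of ush, the strongest on each side up to the next gene, the 3 genes of at least 30 kb nearest to ush in density, and up to 5 bound partners by signal. The genes, lists and rules were chosen with earlier results of these data known. Other margins, distances, peak sets and word windows and leaving out each replicate were tried. Counting, matching and word searches were checked on simulated data. The sequence window of GATAe is not reported here. Python 3.11.15, numpy 2.4.6, pandas 2.3.3, scipy 1.17.1 and matplotlib 3.10.9 were used.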

Additional observations from a re-analysis of the deposited data

How the results depend on the processing

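The count of IDR summits at ush stayed within 1.5 times of 20 with no margin, a 5 kb margin, nearest start sites and, without each replicate, between 15 and 17. It was 11 among IDR peaks of at least median signal and 3 among the 1000 strongest, by the smaller sets. The density of ush was 1.61 per 10 kb among those stronger peaks, and 2.20 to 2.49 without each replicate. The 7 summits of the GATA factor genes became 4 with no margin, 11 with 5 kb, 2 at median signal or more, 0 among the 1000 strongest and 4 without replicate 1, 2 or 3. For these counts and densities, leaving out a replicate meant keeping IDR peaks matched among the 7092 strongest peaks of both other replicates. The IDR list itself was not called again. For replicates 1, 2 and 3 in turn this rule kept 5095, 4999 and 5039 of all 7092 IDR peaks. The share of ush peaks matched in all replicates was 70% within 50 bp, 100% within 200 bp and 50% with replicate lists of 5000. Without each replicate it was 90% to 100%, by matches in the full lists of the other replicates. GATA words lay in 25% of ush windows for AGATAA alone, beside 16.7% of all IDR peaks, in 30% within 50 bp (24.0% of all) and in 70% within 200 bp (59.9% of all). The ush-cbt peak kept a mean of 2053 under the other matching rules and 1913 to 2204 without each replicate. Counting ush body summits nearest to a ush start, chosen after seeing the data, gave 14. No paired analysis was possible because there is 1 group. Fixed list lengths and unknown depth limit any statement on weak or missing peaks, pnr included.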
